A study of Mus musculus with 8 samples.

Results

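Fshr, Lhcgr, Prlr and Ghr encode the receptors through which follicle-stimulating hormone (FSH), luteinizing hormone (LH), prolactin and growth hormone act on the ovary. Stat5a and Stat5b encode transcription factors that prolactin and growth hormone activate, and Socs2 and Cish encode inhibitors that Stat5 induces. These 8 genes were taken by name from the 21997 genes listed in both deposited count tables. All 8 were listed in both tables and passed the low-count filter, which left 17925 genes. Their raw counts ran from 9 (Cish in 1 preantral library) to 5311 (Prlr in 1 small antral library).

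The series holds RNA from single follicles of C57BL/6 mouse ovary, 1 library per follicle and 2 libraries in each of 4 groups. Preantral follicles (PF), which have no fluid-filled cavity, and small antral follicles (SAF), in which a cavity has formed, were taken from wild type mice (PF-WT, SAF-WT) or are labelled as derived from transplanted FGSCs, female germline stem cells (PF-TF, SAF-TF). The labels give no treatment and no other allele. They leave unsaid which cells of a follicle labelled TF descend from the transplant, in which hosts it grew, how old the mice were, or whether replicates came from separate mice, so the p-values measure the spread between these single follicles. Levels are given as CPM (counts scaled to library size, with TMM factors), differences between groups as log2 fold changes with their standard error (SE) from 1 edgeR quasi-likelihood fit, and a gene was called at a Benjamini-Hochberg adjusted p under 0.05 over all genes tested.

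Total counts of the shared genes ran from 7654700 to 9804822 per library. Oocyte and granulosa cell markers were detected in every library: the 13 oocyte markers summed to 6633 to 16551 CPM in the PF libraries and 218 to 2641 CPM in the SAF libraries, and the 12 granulosa markers to 888 CPM or more in each library. The 9 luteal markers summed to 29567 and 40628 CPM in SAF-TF, against 3803 and 4493 CPM in SAF-WT and at most 3020 CPM in the PF libraries. Hsd3b1 gave the most in the SAF-WT and PF libraries, with 3775 and 3080 CPM in SAF-WT replicates 1 and 2. In SAF-TF replicates 1 and 2, Hsd3b1 gave 15050 and 10490 CPM and Akr1c18 gave 10530 and 11350 CPM. All 9 were called higher in SAF-TF than in SAF-WT, beside 4.61% of all genes. The 8 stroma and fibroblast markers summed to 5784 and 8129 CPM in SAF-WT and to 1480 and 2149 CPM in SAF-TF, against at most 491 CPM in the PF libraries. Ogn gave the most in SAF-WT, 4893 CPM in replicate 1 and 2950 CPM in replicate 2, against 459 and 356 CPM in SAF-TF. Of the 8, 3 were called lower in SAF-TF than in SAF-WT and 0 higher, beside 5.34% and 4.61% of all genes. The 9 macrophage markers listed summed to 740 and 1167 CPM in SAF-TF and to 260 and 332 CPM in SAF-WT, against 506 and 97.1 CPM in PF-WT and 49.1 and 23.2 CPM in PF-TF. In such bulk libraries fewer cells of a type and less RNA per cell cannot be told apart, and the part of these cell types in the results that follow was not tested.

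FSH and LH, both made by the pituitary, act through receptors that couple to the stimulatory G protein and raise cyclic AMP. FSH receptors lie on granulosa cells from the preantral stage on, whereas LH receptors lie on theca cells and, late in follicle growth, on mural granulosa cells and then on luteal cells. Prolactin and growth hormone act through cytokine receptors without a kinase of their own, which bind Jak2 and through it phosphorylate Stat5. Prolactin maintains the rodent corpus luteum, and Socs2 and Cish close a negative feedback loop on this pathway.

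The genes lie on 5 chromosomes of GRCm38 (GENCODE M21). Fshr (chr17:88984952-89200675) and Lhcgr (chr17:88716481-88791990) lie on the minus strand, 192961 bases apart. Prlr (chr15:10177238-10349180, plus strand) and Ghr (chr15:3317760-3583492, minus strand) share chromosome 15. Stat5a (chr11:100859351-100885169, plus strand) and Stat5b (chr11:100780731-100850724, minus strand) are neighbours, 8626 bases apart. Socs2 lies at chr10:95385362-95417180 on the minus strand and Cish at chr9:107296026-107302784 on the plus strand.

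RefSeq's table of start sites (GRCm38.p6) held 12 entries for 7 of the 8 genes, all but Socs2, each spanning 250 bases before to 50 bases after the start. Both strands were searched for the Stat5 binding motif TTCNNNGAA (the GAS motif), the E-box CACGTG, the cAMP response element TGACGTCA, its core TGACGT, which also matches within the whole element, and the Sp1 box GGGCGG. In all, 4 windows are shown up to 30 bases after the start, 5′ to 3′ on the gene's own strand, because they hold the motifs of the factors that the receptors' pathways use or that are known for these promoters. Capitals mark 2 GAS motifs in Cish, 1 in the second of 3 Prlr windows, the E-box in Fshr and 4 Sp1 boxes in Lhcgr.
Cish (chr9:107296409-107296688, plus strand): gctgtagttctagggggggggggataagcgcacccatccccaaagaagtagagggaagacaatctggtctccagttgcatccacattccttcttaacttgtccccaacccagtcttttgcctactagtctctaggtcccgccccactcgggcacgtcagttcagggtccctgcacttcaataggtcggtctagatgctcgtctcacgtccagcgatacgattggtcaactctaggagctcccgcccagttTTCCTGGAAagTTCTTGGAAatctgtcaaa
Prlr, second window (chr15:10223656-10223935, plus strand): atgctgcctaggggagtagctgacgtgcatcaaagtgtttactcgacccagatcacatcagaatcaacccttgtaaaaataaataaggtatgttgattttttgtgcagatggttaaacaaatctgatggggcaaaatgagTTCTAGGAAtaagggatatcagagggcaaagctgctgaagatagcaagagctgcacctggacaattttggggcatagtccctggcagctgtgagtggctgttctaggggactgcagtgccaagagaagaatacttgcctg
Fshr (chr17:89200646-89200925, minus strand): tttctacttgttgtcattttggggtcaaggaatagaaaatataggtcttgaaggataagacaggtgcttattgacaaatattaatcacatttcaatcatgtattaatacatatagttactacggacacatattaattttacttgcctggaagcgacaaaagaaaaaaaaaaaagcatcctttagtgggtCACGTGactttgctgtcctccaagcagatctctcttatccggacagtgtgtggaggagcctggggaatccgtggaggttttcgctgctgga
Lhcgr (chr17:88791985-88792264, minus strand): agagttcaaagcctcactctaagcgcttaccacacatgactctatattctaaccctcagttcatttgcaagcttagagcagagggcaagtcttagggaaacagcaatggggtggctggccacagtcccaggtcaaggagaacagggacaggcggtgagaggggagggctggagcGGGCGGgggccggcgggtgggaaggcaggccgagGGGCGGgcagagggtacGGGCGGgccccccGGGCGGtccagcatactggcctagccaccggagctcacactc

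The GAS motifs of Cish, TTCCTGGAA and TTCTTGGAA, begin at positions 1 and 12, counted from the start site, and that of Prlr, TTCTAGGAA, begins at -110. Of all 32851 windows in the table, 8.3% held a GAS motif and 0.457% held 2 or more; of the 12 windows of these genes, 2 held one. The E-box of Fshr, known as a site of USF factors in this promoter, begins at -61, and 7.15% of all windows held one. The Sp1 boxes of Lhcgr begin at -76, -42, -25 and -12; at least 1 such box was in 5 of the 12 windows and in 35.7% of all windows, and 19.5% of all windows held 2 or more. The core TGACGT was found in 2 of the 12 windows (7.51% of all windows) and the whole element in 0 of the 12 (1.79% of all windows). A match of letters is a description of these windows and not a measured binding site.

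**Figure D1:**
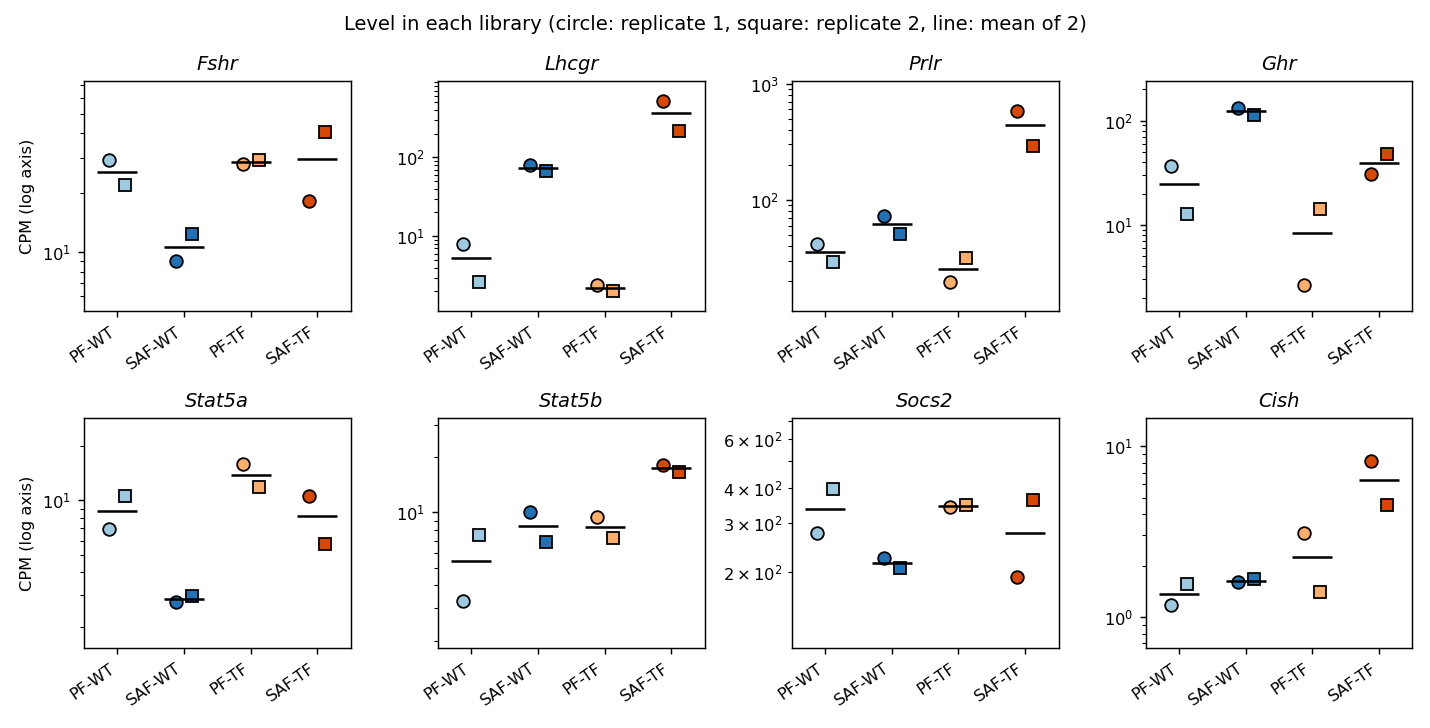
Level of each of the 8 genes in every library, in CPM on a log axis, for PF-WT, SAF-WT, PF-TF and SAF-TF; circles are replicate 1, squares replicate 2, and lines the mean of 2. Lhcgr and Prlr are highest in the SAF-TF libraries, Ghr in the SAF-WT libraries, and Fshr and Stat5a are lowest in SAF-WT.

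Of the receptors, Lhcgr had the widest range over the libraries. It was at 8.01 and 2.66 CPM in PF-WT, 80.2 and 67.3 in SAF-WT, 2.44 and 2.01 in PF-TF, and 514 and 216 in SAF-TF. All 4 SAF libraries lay above all 4 PF libraries, and both SAF-TF libraries lay above both SAF-WT libraries. From the preantral to the small antral stage Lhcgr rose by 3.81 ± 0.53 (log2, SE) in WT, 14.0-fold (adjusted p = 0.000699), and by 7.35 ± 0.62 in TF, 164-fold (adjusted p = 3.35e-05). These calls held under every alternative and with any 1 library left out, but their size moved: the WT value was 4.90 without PF-WT replicate 1 and 3.20 without PF-WT replicate 2, and the TF value 6.60 without SAF-TF replicate 1. Among the small antral follicles Lhcgr was 4.95-fold higher in SAF-TF than in SAF-WT (2.31 ± 0.47, adjusted p = 0.0185); without SAF-WT replicate 1, SAF-WT replicate 2 or SAF-TF replicate 1 the adjusted p was 0.113, 0.108 and 0.168, and in the last case the difference was 1.55. Among the preantral follicles the difference was -1.24 ± 0.59 (adjusted p = 0.267).

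The difference between the 2 stage effects, the stage by source interaction, was 3.55 ± 0.74 for Lhcgr (adjusted p = 0.0641) and did not pass. It passed without the low-count filter (adjusted p = 0.0419), in DESeq2 (6.53e-05), and without PF-WT replicate 2 (0.0191) or SAF-TF replicate 2 (0.0303). The theca and interstitial markers Cyp17a1 and Insl3, an androgen enzyme and an insulin-like hormone of theca cells, stood at 47.2 and 41.5 CPM and at 87.7 and 79.5 CPM in the SAF-WT pair, and at no more than 5.61 CPM in SAF-TF. Of the 8 markers of that list that were tested, 4 were lower in SAF-TF than in SAF-WT (Cyp17a1, Insl3, Hhip and Ptch1), 1 was higher, Lhcgr itself, and the median was -2.35. Aldh1a1, a retinaldehyde dehydrogenase gene of the same list, was at 814 and 595 CPM in SAF-WT and 1900 and 1010 CPM in SAF-TF (1.05 ± 0.45, adjusted p = 0.158). The 9 markers listed, Lhcgr included, summed to 1600 and 1320 CPM in SAF-WT and to 2606 and 1391 CPM in SAF-TF. Aldh1a1 gave the most to these sums. Lhcgr itself gave 80.2 and 67.3 CPM in SAF-WT and 514 and 216 CPM in SAF-TF, so the sums are not independent of its level. The part of the other markers in the Lhcgr level was not tested.

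Prlr, the prolactin receptor gene, was the only one of the 8 for which the test of a difference between the stage effects of the 2 sources passed. It was at 41.4 and 29.2 CPM in PF-WT, 72.7 and 51.3 in SAF-WT, 19.7 and 31.4 in PF-TF, and 584 and 291 in SAF-TF. The 2 SAF-TF libraries lay above the other 6, whose values spanned 19.7 to 72.7 CPM. Prlr rose 17.1-fold with stage in TF (4.09 ± 0.41, adjusted p = 7.81e-05), whereas the WT stage effect was 0.82 ± 0.37 (adjusted p = 0.115). The interaction was 3.28 ± 0.53 (adjusted p = 0.0269), and Prlr was 7.05-fold higher in SAF-TF than in SAF-WT (2.82 ± 0.38, adjusted p = 0.00487). The TF stage call and the call between small antral follicles held in every alternative and with any 1 library left out; the interaction did not pass without SAF-WT replicate 2 (adjusted p = 0.112), PF-TF replicate 1 (0.0542) or SAF-TF replicate 1 (0.0739). The WT stage effect passed in DESeq2 (0.96, adjusted p = 0.0392) and with the authors' scale factors (1.15, adjusted p = 0.0321). Prlr shares 203 exon bases (1.32%) with the protein-coding gene Gm21973 on the same strand, and how reads there were counted is not given.

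Fshr differed in a narrower range. Its levels were 29.3 and 21.9 CPM in PF-WT, 9.06 and 12.3 in SAF-WT, 27.9 and 29.4 in PF-TF, and 18.3 and 40.7 in SAF-TF. The SAF-WT pair lay below the other 6 libraries, and the SAF-TF pair spanned the PF-TF pair. Fshr fell 2.39-fold with stage in WT (-1.26 ± 0.40, adjusted p = 0.0355), and was 2.76-fold higher in SAF-TF than in SAF-WT (1.46 ± 0.40, adjusted p = 0.0489). Its stage effect in TF was 0.04 ± 0.39 (adjusted p = 0.942) and the interaction 1.30 ± 0.56 (adjusted p = 0.304), so a difference between the 2 stage effects was not shown. Both Fshr calls lay near the threshold: with RLE factors, another scaling, the adjusted p was 0.0595 for the WT stage effect and 0.0575 between small antral follicles. Leaving out PF-WT replicate 1, SAF-WT replicate 1 or SAF-WT replicate 2 ended the first (adjusted p of 0.180, 0.203 and 0.0772), and leaving out SAF-WT replicate 1 or 2 or SAF-TF replicate 1 or 2 ended the second (0.277, 0.132, 0.0592 and 0.286), whose value without SAF-TF replicate 2 was 0.78.

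Ghr, the growth hormone receptor gene, was the receptor gene with its highest level in WT. It was at 36.8 and 12.7 CPM in PF-WT, 133 and 112 in SAF-WT, 2.66 and 14.0 in PF-TF, and 31.0 and 48.2 in SAF-TF. The SAF-WT pair lay above all other libraries, and SAF-TF replicate 1 lay below PF-WT replicate 1. Ghr rose with stage in both sources, 4.99-fold in WT (2.32 ± 0.66, adjusted p = 0.0216) and 4.70-fold in TF (2.23 ± 0.67, adjusted p = 0.0232), with an interaction of -0.09 ± 0.92 (adjusted p = 0.992). Its difference between sources was -1.63 ± 0.64 at the small antral stage (adjusted p = 0.128; 0.00450 in a fit of those 4 libraries alone) and -1.55 ± 0.67 at the preantral stage (adjusted p = 0.227). The size moved with the preantral library left out: the WT value was 3.39 without PF-WT replicate 1 and 1.74 without PF-WT replicate 2, and the TF value 1.61 without PF-TF replicate 1 and 4.04 without PF-TF replicate 2. The WT stage call was lost without PF-WT replicate 2 (adjusted p = 0.102), SAF-WT replicate 1 (0.0883) or SAF-WT replicate 2 (0.0505), and the TF stage call without PF-TF replicate 1 (0.0687) or SAF-TF replicate 2 (0.100).

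Stat5a was lowest in SAF-WT. Its levels were 6.96 and 10.5 CPM in PF-WT, 2.75 and 2.96 in SAF-WT, 15.8 and 11.8 in PF-TF, and 10.6 and 5.75 in SAF-TF. The SAF-WT pair, with 24 and 25 counts, lay below the other 6 libraries. Stat5a fell 3.06-fold with stage in WT (-1.61 ± 0.46, adjusted p = 0.0220), while the TF stage effect was -0.76 ± 0.43 (adjusted p = 0.180) and the interaction 0.85 ± 0.62 (adjusted p = 0.573). Between small antral follicles the difference was 1.51 ± 0.46 (adjusted p = 0.0654; 0.0461 in DESeq2). The WT call was lost without PF-WT replicate 2 (adjusted p = 0.107), SAF-WT replicate 1 (0.12) or SAF-WT replicate 2 (0.0873).

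Stat5b, the neighbouring gene, was highest in SAF-TF. It was at 3.28 and 7.55 CPM in PF-WT, 9.98 and 6.87 in SAF-WT, 9.41 and 7.23 in PF-TF, and 18.1 and 16.5 in SAF-TF. The SAF-TF pair lay above the other 6 libraries, which overlapped one another. No contrast passed: the TF stage effect was 1.06 ± 0.44 (adjusted p = 0.0790; 0.0486 with RLE factors and 0.0450 in DESeq2), and the difference between small antral follicles 1.04 ± 0.44 (adjusted p = 0.158). Stat5a and Stat5b are paralogs, with 10.8% of the 50-base windows of the longest Stat5a transcript also present in Stat5b and 11.8% the other way, and 2.85% and 5.18% of 100-base windows. It is not given how the authors counted reads that match both, so their counts are uncertain by an amount that these shares do not measure. Stat5a also shares 72 exon bases (1.01%) with Stat3 on the other strand.

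Within each library, where scaling cancels, the balance of the 2 Stat5 genes differed by stage. Stat5a had more counts than Stat5b in all 4 PF libraries, with log2 ratios of 1.08 and 0.48 in PF-WT and 0.75 and 0.71 in PF-TF. Stat5a had fewer in all 4 SAF libraries, with ratios of -1.86 and -1.21 for the SAF-WT pair and -0.78 and -1.52 for the SAF-TF pair. Stat5a made up 58.3% to 67.9% of the Stat5 counts in PF and 21.6% to 36.8% in SAF; in PF-WT replicate 2, the PF library nearest to equal counts, the exact 95% binomial interval was 50.3% to 65.9%, which covers counting error only. The ratio was not tested over samples.

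The balance of the 2 gonadotropin receptors also differed by stage. Lhcgr counts were below Fshr counts in all 4 PF libraries (log2 ratios of -1.87, -3.04, -3.52 and -3.87) and above them in all 4 SAF libraries (3.15 and 2.45 in SAF-WT, 4.82 and 2.40 in SAF-TF). Prlr counts were above Ghr counts in all libraries except the 2 of SAF-WT, where the ratio was -0.87 and -1.13, against 4.24 and 2.59 in SAF-TF. In PF-WT replicate 1 the ratio was only 0.17. There Prlr made up 52.9% of the counts of both genes, and the exact 95% binomial interval, 48.8% to 57.0%, includes equal counts. These ratios compare counts without regard to transcript length, so only their differences between libraries can be read.

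**Figure D2:**
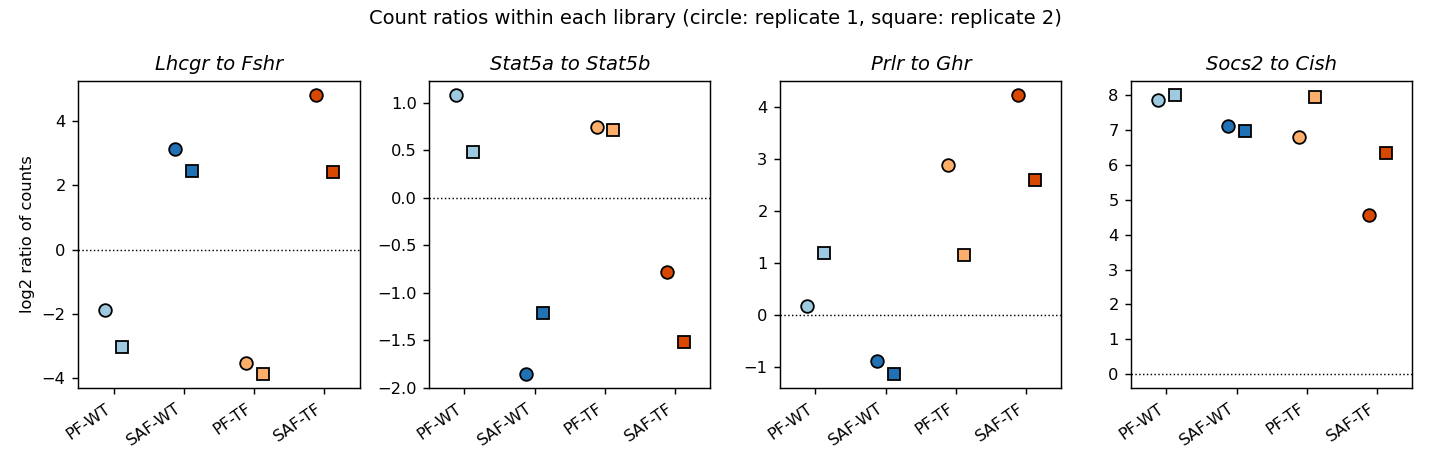
Log2 ratio of counts within each library for 4 gene pairs (Lhcgr to Fshr, Stat5a to Stat5b, Prlr to Ghr, Socs2 to Cish) by group; circles are replicate 1, squares replicate 2, and the dotted line marks equal counts. The Lhcgr to Fshr ratio is negative in all PF and positive in all SAF libraries, the Stat5a to Stat5b ratio the reverse, and the Prlr to Ghr ratio is negative in SAF-WT only.

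Of the 2 Stat5-induced inhibitors, Socs2 was abundant and Cish scarce. Socs2 was at 276 and 398 CPM in PF-WT, 224 and 207 in SAF-WT, 342 and 349 in PF-TF, and 192 and 363 in SAF-TF. The SAF-WT pair lay below both PF pairs, while the SAF-TF pair held both a lower and a higher value than SAF-WT and PF-TF. No contrast passed for Socs2: its stage effect was -0.64 ± 0.30 in WT (adjusted p = 0.119) and -0.31 ± 0.29 in TF (adjusted p = 0.417), and its source effects were 0.03 ± 0.29 in PF (adjusted p = 0.967) and 0.36 ± 0.29 in SAF (adjusted p = 0.450).

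Cish was at 1.18 and 1.55 CPM in PF-WT, 1.61 and 1.66 in SAF-WT, 3.10 and 1.4 in PF-TF, and 8.14 and 4.51 in SAF-TF. Its counts were 9 to 28 in 6 libraries and 74 and 40 in SAF-TF, the pair above all others. The TF stage effect of 1.49 ± 0.61 (adjusted p = 0.0742) and the difference between small antral follicles of 1.95 ± 0.63 (adjusted p = 0.0771) did not pass; the first passed with the authors' scale factors (adjusted p = 0.0307) and without PF-TF replicate 1 (0.0440), and the second in a fit of the 4 SAF libraries alone (0.0230) and without PF-TF replicate 2 (0.0477). Antisense genes Gm17041 and Gm17040 overlap 7.46% and 4.07% of the Cish exon bases, and without a stated strand setting their reads cannot be told apart from those of Cish. The log2 ratio of Socs2 to Cish counts was 4.56 and 6.33 in SAF-TF and 6.78 to 8.0 in the other 6 libraries.

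Levels were compared between genes only per length, as CPM per kilobase of the longest GENCODE transcript. On this scale Socs2 was the highest of the 8 in every group, from 50.9 ± 2.86 (SD, n = 2) in SAF-WT to 81.4 ± 1.12 in PF-TF. In PF-WT it was followed by Fshr (10.8 ± 2.22), Ghr (5.92 ± 4.08), Prlr (3.56 ± 0.87), Stat5a (2.21 ± 0.64), Stat5b (1.04 ± 0.58), Lhcgr (0.78 ± 0.55) and Cish (0.29 ± 0.06), and of these neighbours the libraries' ranges overlapped between Ghr and Prlr and between Stat5b and Lhcgr. In SAF-TF the next were Lhcgr (53.4 ± 30.9), Prlr (44.2 ± 21.0) and Fshr (12.5 ± 6.73), and the libraries' ranges of Socs2, Lhcgr and Prlr overlapped; Ghr (9.48 ± 2.90), Stat5b (3.32 ± 0.23), Stat5a (2.06 ± 0.86) and Cish (1.35 ± 0.55) followed, with overlap between Fshr and Ghr and between Stat5a and Cish. In SAF-WT the next was Ghr (29.4 ± 3.53), above Lhcgr (10.8 ± 1.33), with no overlap between their libraries, and below them stood Prlr (6.26 ± 1.53), Fshr (4.53 ± 0.98), Stat5b (1.62 ± 0.42), Stat5a (0.72 ± 0.04) and Cish (0.35 ± 0.01); of the neighbours in this group, Prlr and Fshr overlapped. In PF-TF, Fshr stood next after Socs2 (12.1 ± 0.45), then Stat5a (3.5 ± 0.71), Prlr (2.58 ± 0.84), Ghr (2.00 ± 1.93), Stat5b (1.60 ± 0.30), Cish (0.48 ± 0.26) and Lhcgr (0.33 ± 0.04). There the libraries of Stat5a and Prlr, of Prlr and Ghr, of Ghr and Stat5b, and of Cish and Lhcgr overlapped, so the order within these pairs is not resolved. With the median transcript length in place of the longest, the level of Prlr in SAF-TF was 352 in place of 44.2. The 12 annotated transcripts of Prlr differ in length. Its level then stood above that of Socs2 (314). On that scale Prlr (28.4) and Ghr (20.7) stood above Fshr (10.8) in PF-WT. In PF-TF Prlr (20.6) stood above Fshr (12.1), and in SAF-WT Prlr (49.9) stood above Lhcgr (29.3). The orders given here for each group thus rest on the transcript chosen.

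The stage contrasts called a large share of all genes, near the share of the 8, so the number called among the 8 says little of them as a group. In WT 4 of the 8 were called, 2 higher (Lhcgr, Ghr) and 2 lower (Fshr, Stat5a), while 35.1% of all genes were called, 12.7% higher and 22.5% lower. In TF 3 of 8 were called, all higher (Lhcgr, Prlr, Ghr), beside 43.2% of all genes, 18.2% higher and 25% lower. The median log2 fold change was 0.44 over the 8 and -0.20 over all genes in WT, and 1.27 and -0.08 in TF. With the authors' scale factors the median over all genes moved to 0.14 in WT and 0.27 in TF, and the share of higher genes among those called from 36.0% to 53.5% and from 42.1% to 56.2%; Fshr then missed the call in WT (adjusted p = 0.108).

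Between sources the preantral follicles gave 0 of 8 calls in edgeR and in DESeq2, and Ghr was the 1 gene of the 8 with an unadjusted p under 0.05 (0.0438). Of all genes 0.218% were called there, 39 genes, with 3719 at an unadjusted p under 0.05. At the small antral stage 3 of 8 were called, all higher in SAF-TF (Fshr, Lhcgr, Prlr), beside 9.96% of all genes, 4.61% higher and 5.34% lower. The median was 1.49 over the 8 and 0 over all genes. The interaction was called for 1 of 8, Prlr, beside 0.904% of all genes and 0.658% higher.

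The groups did not overlap for 7 of the 8 genes in the WT stage contrast (70.9% of all genes), 6 in the TF stage contrast (74.2%), 2 between preantral follicles (49%) and 7 between small antral follicles (63.8%). With 2 libraries a group, such separation was common over all genes. The stage contrasts and the source contrasts share libraries, so their values are given side by side and not as independent results.

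**Figure D3:**
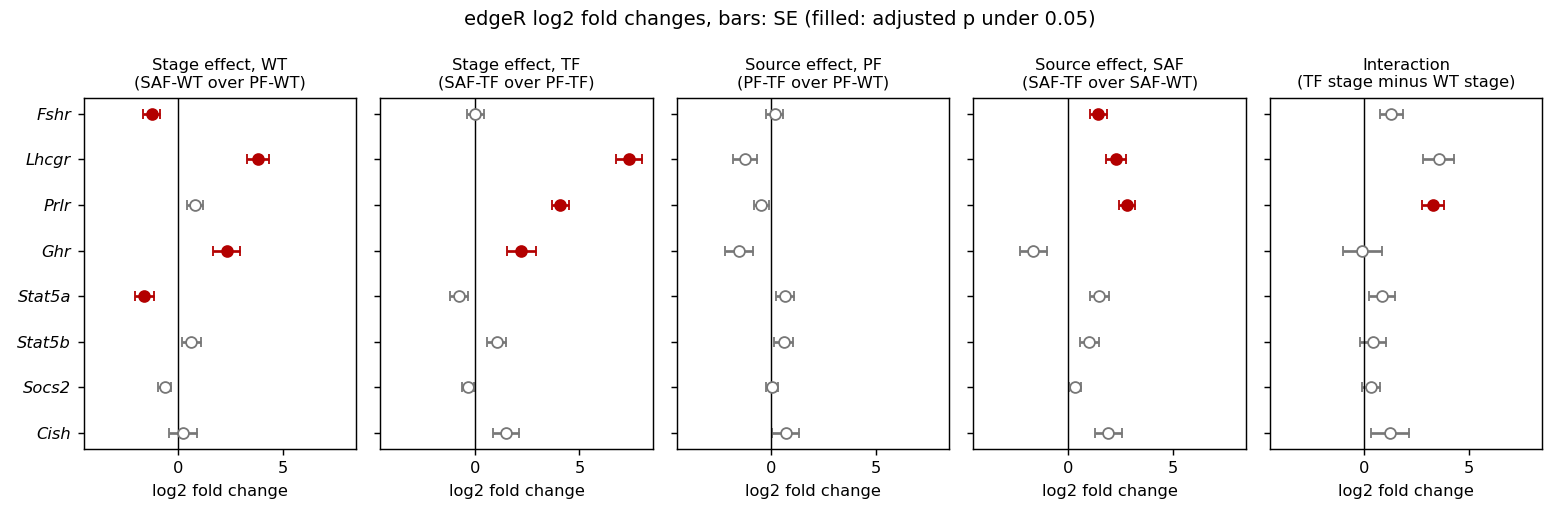
Log2 fold change of each gene with its SE in the 5 contrasts of the edgeR fit; filled points have an adjusted p under 0.05. Lhcgr and Ghr are filled in both stage contrasts, Prlr in the TF stage, small antral source and interaction panels, and no point is filled between preantral follicles.

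In the authors' deposited table for TF, Lhcgr (log2 fold change 7.69), Prlr (4.42), Ghr (2.58), Stat5b (1.41) and Cish (1.84) were marked at an FDR under 0.05. In the authors' deposited table for WT, Fshr (-0.92), Lhcgr (4.11), Prlr (1.15), Ghr (2.64) and Stat5a (-1.26) were. The authors' deposited tables thus called 5 genes in each source, where the edgeR fit called 3 in TF and 4 in WT. The share of all genes marked in the authors' tables is not given here, so these counts are not read as a result on the 8. Prlr in WT and Stat5b and Cish in TF were called in the authors' deposited tables and not in the edgeR fit.

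**Figure D4:**
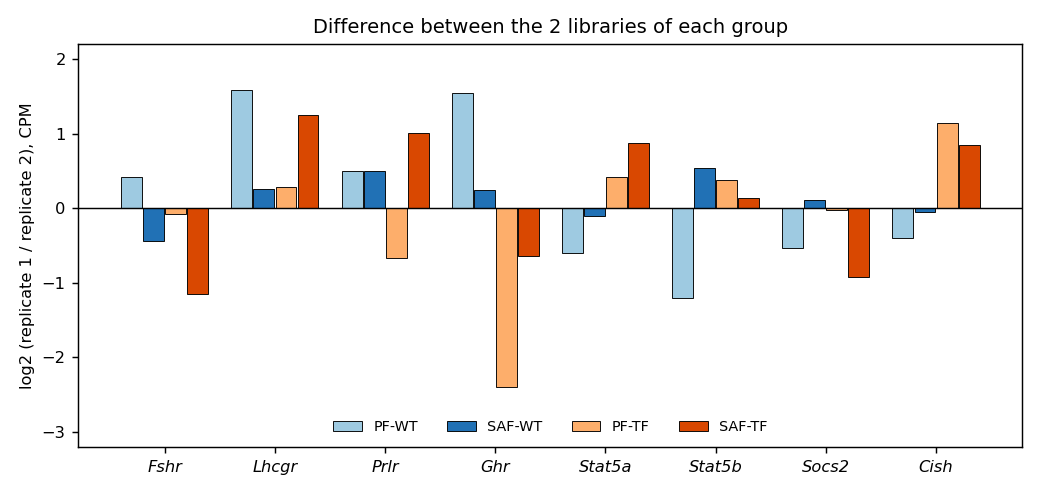
Log2 ratio of replicate 1 to replicate 2 in CPM for each gene, with 1 bar per group (PF-WT, SAF-WT, PF-TF, SAF-TF). In SAF-TF the bars of Lhcgr, Prlr, Stat5a, Stat5b and Cish point up and those of Fshr, Ghr and Socs2 point down. The longest bar is Ghr in PF-TF.

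The 2 SAF-TF follicles differed from each other in most of these genes. Replicate 1 had 2.38-fold more Lhcgr, 2.01-fold more Prlr, 1.84-fold more Stat5a and 1.8-fold more Cish than replicate 2. Replicate 2 had 2.23-fold more Fshr, 1.89-fold more Socs2 and 1.55-fold more Ghr. Stat5b was alike in the pair, 1.10-fold higher in replicate 1. Over all genes, 24.1% differed by 1.8-fold or more between the 2 SAF-TF libraries, near the SAF-WT pair (24.8%) and fewer than in the PF pairs (30.2% and 29.1%). The 1.8-fold mark lies at the Cish fold, so these shares are a description and not a test. The summed luteal markers were 40628 CPM in replicate 1 and 29567 CPM in replicate 2, and the summed granulosa markers 1864 CPM in replicate 1 and 2865 CPM in replicate 2; their part in these differences was not tested. The SAF-WT pair differed by at most 1.45-fold in each of the 8 genes, and the widest pair was PF-TF for Ghr, 5.29-fold higher in replicate 2. Gaps of like size to those in SAF-TF also stood in the PF pairs. In PF-WT, Lhcgr was 3.01-fold and Ghr 2.91-fold higher in replicate 1, and Stat5b 2.30-fold higher in replicate 2. In PF-TF, Cish was 2.21-fold higher in replicate 1.

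The ligands' genes were tested as far as listed. A list of 10 genes held pituitary hormones and 3 placental members of the prolactin family; 4 were in both tables, all at low levels (Cga, Lhb, Pomc and the placental Prl7d1), and Fshb, Prl and Gh were not analysed here. Pomc, the precursor of corticotropin, rose in TF (1.48 ± 0.52, adjusted p = 0.0425) from a mean of 1.89 to 5.30 CPM. Lhb, the LH subunit gene, was at a mean of 1.16 CPM in PF-WT and at 0 in both SAF-WT libraries; in TF its mean was 0.955 CPM in PF and 0.0564 CPM in SAF. It was called lower with stage in both (adjusted p of 0.0204 in WT and 0.0480 in TF), at levels too low for a fold.

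The counts in the following lists are to be read against the shares over all genes, 12.7% higher and 22.5% lower with stage in WT, 18.2% and 25% in TF, and 4.61% and 5.34% between small antral follicles. For the interaction 0.904% of all genes were called, and 0.658% were called with a higher stage effect in TF. Genes widely reported to respond to prolactin in luteal cells had the highest share of calls of the 10 lists in the TF stage contrast and between small antral follicles. The lists were chosen with earlier results of these data known, so this rank is a description only. For this list, calls are counted whichever way prolactin is known to act on the gene. Of 14 tested, Lhcgr included, 11 rose (78.6%) and 1 fell with stage in TF (median 2.82, against -0.08 over all genes), 6 rose (42.9%) and 1 fell in WT (median 0.79), 9 were higher in SAF-TF than in SAF-WT (64.3%) and 0 lower (median 2.61), and 5 had a higher stage effect in TF. Akr1c18, which encodes the enzyme that inactivates progesterone and which prolactin is known to repress, was at 6.20 to 7.09 CPM in 6 libraries and at 10530 and 11350 CPM in SAF-TF (10.71 ± 0.24 over SAF-WT, adjusted p = 3.24e-08). Star, which brings cholesterol to the mitochondrial side-chain cleavage enzyme, was at 22.0 and 32.2 CPM in SAF-WT and at 1289 and 866 CPM in SAF-TF (5.31 ± 0.42, adjusted p = 0.000288). Ptgfr, the prostaglandin F receptor gene, was 6.55 ± 0.42 higher in SAF-TF on the log2 scale (adjusted p = 0.000111), and Hsd17b7, an enzyme also known as prolactin receptor-associated protein, 3.69 ± 0.41 higher (adjusted p = 0.00222). Several of these genes are also in the luteal marker list, so the list and the marker sums are not independent of each other.

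Of 16 LH-responsive ovulatory genes tested, 9 rose and 0 fell with stage in TF (56.2% higher, against 18.2% of all genes), and 5 rose and 2 fell in WT (31.2% higher, against 12.7%). Between small antral follicles 5 were higher and 0 lower in SAF-TF (31.2% higher, against 4.61%). The same 5, Star, Rgcc, Runx1, Runx2 and Cebpb, had an interaction that passed. Runx2 was 4.83 ± 0.47 higher in SAF-TF than in SAF-WT (adjusted p = 0.00104), and Cebpb, a factor required for luteinization, was 3.52 ± 0.49 higher (adjusted p = 0.005). Runx1 fell with stage in WT (a mean of 74.2 to 26.3 CPM) and rose in TF (22.3 to 63.4 CPM), with an interaction of 3.0 ± 0.46 (adjusted p = 0.0226).

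In each contrast most FSH-responsive granulosa genes were not called. Of 17 tested, 4 fell with stage in WT, namely Inha, Cyp19a1, Hsd17b1 and Lgmn, and 0 rose; these 23.5% lower are near the 22.5% of all genes. In TF 3 rose and 1 fell (17.6% and 5.88%, against 18.2% and 25% of all genes), and between small antral follicles 3 were higher in SAF-TF and 0 lower (17.6% higher, against 4.61%). Inha, the inhibin alpha subunit, fell by 2.60 ± 0.32 in WT (adjusted p = 0.000351) and was 2.26 ± 0.31 higher in SAF-TF than in SAF-WT (adjusted p = 0.005). Cyp19a1, the aromatase that makes estrogen, was at 40.4 and 11.5 CPM in PF-WT, 1.38 and 2.96 in SAF-WT, 3.43 and 6.92 in PF-TF, and 4.84 and 9.25 in SAF-TF. Sgk1, a kinase gene induced by FSH, was at 461 and 164 CPM in SAF-TF and at 8.31 to 25.9 CPM in the other 6 libraries, with an interaction of 5.08 ± 0.78 (adjusted p = 0.0227). Of 39 genes of the cyclic AMP machinery shared by both gonadotropin receptors, 6 rose and 6 fell in WT (15.4% each), 8 rose and 9 fell in TF (20.5% and 23.1%), and 2 were higher and 1 lower in SAF-TF than in SAF-WT (5.13% and 2.56%). The shares higher, and the share lower in TF, are near those over all genes, and the other shares lower are below them. The one lower was Gnai1, an inhibitory G protein subunit (-1.93 ± 0.31, adjusted p = 0.00864).

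Downstream of the cytokine receptors, Jak2, the kinase that both bind, fell with stage in both sources. It was at 142 and 92.6 CPM in PF-WT, 27.8 and 36.9 in SAF-WT, 92.5 and 74.6 in PF-TF, and 37.5 and 39.0 in SAF-TF. All 4 SAF libraries lay below all 4 PF libraries (WT -1.86 ± 0.28, adjusted p = 0.000986; TF -1.13 ± 0.27, adjusted p = 0.00811). Of the other Jak and Stat genes, Stat4 and Stat6 also fell in both. Between small antral follicles only Jak3 passed, lower in SAF-TF (-3.30 ± 0.88, adjusted p = 0.0452).

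Of 15 other inhibitors of the pathway, 7 fell with stage in WT, 1 rose and 7 were not called; in TF 6 fell, 1 rose and 8 were not called. The shares lower, 46.7% in WT and 40% in TF, stand beside 22.5% and 25% of all genes. Socs1, an inhibitor that binds Jak kinases, was at 19 and 22.6 CPM in PF-WT, 0.344 and 1.07 in SAF-WT, 61.7 and 54.2 in PF-TF, and 10.2 and 6.77 in SAF-TF. It fell by 4.87 ± 0.48 in WT (adjusted p = 0.000125), changed by -2.77 ± 0.38 in TF (adjusted p = 0.000435), and was 3.57 ± 0.48 higher in SAF-TF than in SAF-WT (adjusted p = 0.00487); SAF-WT held 3 and 9 counts of it. Among 14 receptor adaptors 2 rose (14.3%) and 0 fell in WT, 2 rose and 1 fell in TF (14.3% and 7.14%), and 1 was lower in SAF-TF than in SAF-WT. That one was Irs1, an insulin receptor substrate (-1.31 ± 0.29, adjusted p = 0.0245).

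Of 12 genes reported as Stat5 targets in liver, mammary gland or blood cells, 2 rose and 2 fell in WT (16.7% each, against 12.7% and 22.5% of all genes), and 8 were not called. In TF 4 rose and 2 fell (33.3% and 16.7%, against 18.2% and 25%), and 1 was higher in SAF-TF than in SAF-WT. Serpina3g, a serine protease inhibitor gene, rose in both sources, from a mean of 3.83 to 37.2 CPM in WT and from 1.10 to 51.8 CPM in TF. The anti-apoptotic gene Bcl2l1 fell in both (WT -2.24 ± 0.48, adjusted p = 0.00646; TF -2.01 ± 0.47, adjusted p = 0.00708). Igf1, the growth factor that growth hormone induces in liver, was at 316 and 243 CPM in SAF-WT and 113 and 233 CPM in SAF-TF, a difference of -0.69 ± 0.36 (adjusted p = 0.232). Onecut2 had 909 and 1079 counts in SAF-TF and at most 2 counts in any other library. Of 15 related hormone and cytokine receptors, 4 rose and 2 fell in WT, 2 rose and 1 fell in TF, and 1 was higher (Csf2ra) and 2 lower (Lepr, Lgr6) in SAF-TF than in SAF-WT. In none of the 10 lists was a gene called between preantral follicles.

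**Figure D5:**
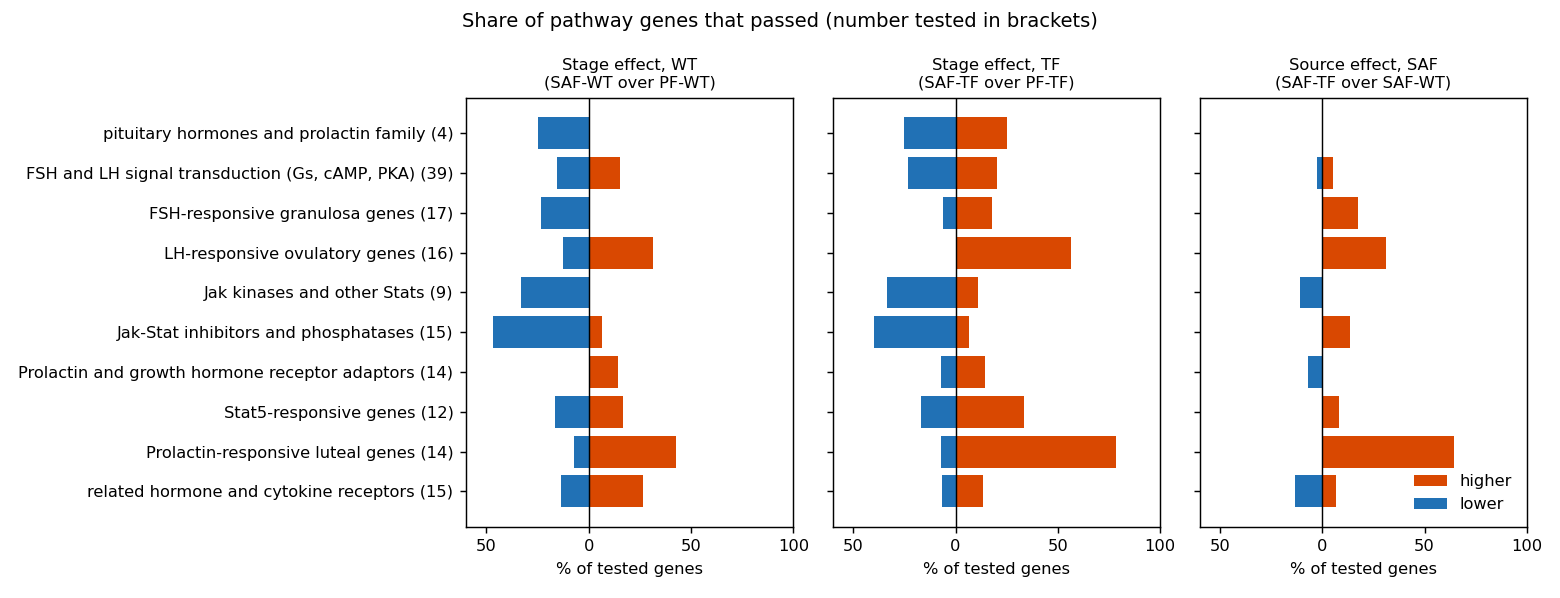
Percent of each list's tested genes (number in brackets) that were called higher (right) or lower (left) in 3 contrasts of the edgeR fit. The prolactin-responsive luteal genes have 11 of 14 higher in the TF stage contrast and 9 of 14 higher between small antral follicles, and the Jak-Stat inhibitors have 7 of 15 lower in the WT and 6 of 15 lower in the TF stage contrast.

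The patterns of the 8 genes were also compared with each other and with all other genes, as the root mean square difference of log2 CPM after each gene's own mean was taken away, over the 8 libraries. Among the 8, the closest pairs were Stat5b with Cish (0.46) and Fshr with Socs2 (0.48), and the farthest was Lhcgr with Stat5a (3.5). Prlr lay nearest to Cish (1.05) of the 8, and Stat5a lay nearer to Fshr (0.67) than to Stat5b (1.09).

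Among genes with a mean of at least 10 CPM, the nearest to Prlr were Aebp1 (0.28), Epdr1 (0.40) and Tmem159 (0.44). Aebp1 had mean levels of 8.09, 12.6, 6.27 and 97.1 CPM in PF-WT, SAF-WT, PF-TF and SAF-TF. The nearest to Lhcgr were Sez6l2 (0.51), Hao2 (0.66) and Prss35 (0.71), and the means of Hao2 were 32.9, 234, 16.5 and 1103 CPM in the same order of groups. The nearest to Ghr were Kcnt2 (0.32), Itih5 (0.37) and Calml4 (0.42), each with its highest mean in SAF-WT. The nearest to Fshr were Ms4a6d (0.28), Tmc4 (0.30) and Igsf3 (0.31).

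Stat5a had the closest match of all: Rnf187 (0.086), Adrm1 (0.14) and Cog8 (0.15), each lowest in SAF-WT and highest in PF-TF. The nearest to Stat5b were Prr24, Kif3b and Rnh1 (0.24 to 0.25), to Socs2 Scaf11 (0.11), Zbtb24 (0.15) and Sh3kbp1 (0.17), and to Cish Aifm2 (0.13), Fam213b (0.29) and Sfxn3 (0.30). Genes of narrow range have small differences by construction: log2 CPM spanned 1.05 for Socs2 and 7.96 for Lhcgr. These distances over 8 libraries carry no test.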

How the data were processed

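A needle was used to separate single follicles, and cDNA was made from their polyA RNA by the SMARTer Ultra Low Input protocol, per the labels. Alignment was by HISAT2 2.0.1 against GRCm38, per the submitters' processing notes; the sources used here do not give the counter, the annotation or the strand setting. Per the file headers, the 2 deposited tables (TF and WT) hold raw counts for each library. The authors' normalized columns hold a signal: the mean count of a group, each library having been scaled by a factor of its own within its table. Beside them the authors deposited the log2 fold change of SAF over PF, computed from that signal, and an FDR, which is an adjusted p-value; which test gave it is not stated in those sources.

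From the counts of the 21997 shared genes, 1 edgeR 4.0.16 quasi-likelihood fit (R 4.3.3; TMM factors, filterByExpr with a minimum count of 10 and a minimum total of 15) gave all 5 contrasts over 4 groups, with 4 residual degrees of freedom and a biological coefficient of variation of 0.303. Genes present in a single table, 132 in that of TF and 141 in that of WT, were not tested. P-values were Benjamini-Hochberg adjusted over 17925 genes. The nearest genes were taken among genes with a mean of at least 10 CPM, without predicted, small RNA, ribosomal protein and pseudogenes. The genes named are the 8, the 3 nearest to each, up to 4 members of each pathway list with the smallest p in the contrast described or in the interaction, and marker genes; Bcl2l1 in TF and Cebpb in the interaction fell outside this rule and were chosen after their values were seen. The 8 genes and all lists were chosen with earlier results of these data known. Alternatives were RLE factors, 2 other filters, DESeq2 1.42.0, the 4 compared libraries alone, a replicate block, the authors' scale factors, recovered from their normalized columns, and each library left out. The test script was tested on simulated data. A count of 0 allows up to 3 counts, 0.301 to 0.394 CPM by library, for counting error only. A result of the list of Jak and other Stat genes is not reported here.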

Additional observations from a re-analysis of the deposited data

Results flagged for a closer look

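The test of the difference between the stage effects of the 2 sources passed for Prlr: the log2 stage effect in TF exceeded that in WT by 3.28 (SE 0.53, adjusted p = 0.0269, edgeR quasi-likelihood test). Prlr stood at 584 and 291 CPM in SAF-TF and between 19.7 and 72.7 CPM in the other 6 libraries. No other of the 8 genes passed this test in that fit.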

How the results depend on the processing

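Of 571 values recomputed over 40 results (each of the 8 genes in 5 contrasts), 510 kept their direction and side of the threshold, 25 lost the call, 22 gained it and 14 changed sign. Most of the 40 results were not called in the main fit, so most values that kept their side stayed uncalled. The only calls kept in every setting were Lhcgr in both stage contrasts, and Prlr in the TF stage contrast and between small antral follicles. Of the 8 genes, the number called ranged from 1 to 4 in the WT stage contrast, 2 to 4 in the TF stage contrast, 1 to 4 between small antral follicles and 0 to 2 in the interaction as each library was left out, and was 0 throughout between preantral follicles. It was 5 for the TF stage contrast with the authors' scale factors, where 8124 of all 17925 genes tested were called. It was 7 between small antral follicles in a fit of those 4 libraries alone, where 3921 of 15467 genes were called. For the interaction it was 2 without a filter, 2 in DESeq2 and 2 with the replicate block, Lhcgr joining Prlr. Same-numbered libraries did not deviate together (r between -0.0999 and 0.0794), so the numbers do not pair them. With the replicate block Fshr between small antral follicles missed the call (adjusted p = 0.0737), Lhcgr gained the interaction (3.30, adjusted p = 0.0486), and the TF stage effect of Fshr was -0.0119. The TF stage effect of Socs2 was 0.0517 with the authors' scale factors. Signs that changed as a library was left out were all of values that did not pass: the TF stage effect ran from -0.65 to 0.51 for Fshr and from -0.84 to 0.0787 for Socs2, the preantral source effect from -0.0273 to 0.43 for Fshr and from -0.16 to 0.33 for Socs2, the small antral source effect of Socs2 from -0.16 to 0.76, and the interaction from -1.04 to 1.70 for Ghr, -0.30 to 0.90 for Stat5b and -0.19 to 0.73 for Socs2. The cause was not tested. The count of all genes called moved most where few were called: between preantral follicles 39 became 207 without a filter, 1281 in DESeq2, 3 in the 4 libraries alone, 6 with the block, and 1 to 935 with a library left out. Between small antral follicles 1785 became 2849 in DESeq2, 3921 in the 4 libraries alone, 1069 with the block, and 143 to 2468 with a library left out. In the interaction 162 became 810 in DESeq2, 74 with the block, and 28 to 343 with a library left out. In the WT stage contrast 6294 became 3075 without SAF-WT replicate 1, and in the TF stage contrast 7744 became 5136 without SAF-TF replicate 1. Leaving out a library leaves its group with 1, assumed to vary like the other groups. With the filter at 10 CPM Cish was not tested. With the median transcript length 21 of 32 levels per length moved beyond the replicate SD. Cish, with 9 to 28 counts in 6 libraries, and Stat5a, with 24 and 25 in SAF-WT, are the levels that depth limits most.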
